A study of Mus musculus with 4 samples.

Results

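The 10 genes followed here belong to the circadian clock: Rora, Nr1d1, Nr1d2, Per1, Per2, Per3, Dbp, Arntl, Cry1 and Bhlhe41. They were taken by gene symbol from a table of read counts for 54532 genes, in which each of the 10 had 1 row. Poly(A) RNA was sequenced from C3H10T1/2 cells, a line of mouse mesenchymal stem cells (MSCs) that can enter the bone, cartilage and fat lineages. All cells had received an siRNA for 48 h. In the control library it was a control siRNA and in the siDNMT1 library an siRNA to DNMT1, the enzyme that copies DNA methylation at CpG sites after replication, and these cells were left uninduced. In the OB library (control siRNA) and in the library labelled siDNMT1_OB (DNMT1 siRNA) osteoblast (OB) induction for 3 days followed, in medium with ascorbic acid, glycerophosphate and dexamethasone, a synthetic glucocorticoid. Each group was 1 library of 1 cell line, so differences between groups have no replicate check. The hours of harvest and of the last medium change, and the culture time of uninduced cells, were not given in the sources used here. The phase of the clock and the effect of a treatment therefore cannot be told apart, nor can induction and any difference in time in culture.

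The mammalian clock is a feedback loop of transcription that runs in most cells, fibroblast and bone cell lines included. A dimer of CLOCK and BMAL1 (the product of Arntl) binds E-boxes and drives the Per, Cry, Nr1d and Bhlhe genes, and the PER and CRY proteins return to the nucleus to block it. In a second loop the nuclear receptors RORα (Rora) and REV-ERBα and β (Nr1d1 and Nr1d2) compete for the same elements, where ROR activates and REV-ERB represses Arntl, and the PAR bZIP factor DBP carries the rhythm to output genes through D-boxes. Serum, a medium change and glucocorticoids are known to reset the clocks of cultured cells.

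The upstream sequences of the members are shown first because the loop is known to act through short elements near such starts. The RefSeq promoter table (build GRCm38.p6) gave 11 windows of 300 bases, from 250 bases before to 50 after a start, for 9 of the 10 genes, with a pair of starts each for Per1 and Arntl. Per2 had no entry. Each motif was searched on both strands in these windows and in all 32851 windows of the table. The motifs did not overlap each other in the printed stretches. The E-box CACGTG was found in 3 of the 11 windows, those of Per1, Cry1 and Bhlhe41, and in 7.15% of all windows. The E'-box CACGTT, which reads AACGTG on the other strand, was in the windows of Cry1 and Nr1d1 and in 4.68% of all. The D-box (TTATGTAA or TTACGTAA) was in that of Per3 and in 1.06% of all, and the ROR element or RORE (TAGGTCA or TGGGTCA) in that of Arntl and in 6.45%. The core of a glucocorticoid element, ACANNNTGT, and the cAMP element TGACGTCA were in 0 of the 11 windows and in 6.85% and 1.79% of all. The windows of Rora, Nr1d2 and Dbp held 0 of the motifs searched. A match is a description of letters and not a measured site. In the lines that follow, read 5′ to 3′ on the strand of the gene, capitals mark the D-box of Per3 (starting 205 and 158 bases before the start of transcription), the E-box of Per1 (166 before), the E'-box of Nr1d1 (28 before), the E'-box and then the E-box of Cry1 (79 and 60 before), the E-box of Bhlhe41 (153 before) and the RORE of Arntl, which lies 30 bases past the second start.
Per3, chr4:151044666-151044915, minus strand: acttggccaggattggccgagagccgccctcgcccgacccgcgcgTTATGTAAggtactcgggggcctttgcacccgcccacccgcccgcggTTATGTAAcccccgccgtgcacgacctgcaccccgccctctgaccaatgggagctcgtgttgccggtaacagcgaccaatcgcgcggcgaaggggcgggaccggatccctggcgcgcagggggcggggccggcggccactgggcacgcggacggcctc
Per1, chr11:69098699-69098948, plus strand: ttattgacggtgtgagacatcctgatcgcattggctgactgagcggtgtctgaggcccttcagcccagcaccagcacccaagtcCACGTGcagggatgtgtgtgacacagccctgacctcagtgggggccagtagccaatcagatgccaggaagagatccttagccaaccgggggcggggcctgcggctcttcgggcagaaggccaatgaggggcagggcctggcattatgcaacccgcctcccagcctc
Nr1d1, chr11:98775378-98775627, minus strand: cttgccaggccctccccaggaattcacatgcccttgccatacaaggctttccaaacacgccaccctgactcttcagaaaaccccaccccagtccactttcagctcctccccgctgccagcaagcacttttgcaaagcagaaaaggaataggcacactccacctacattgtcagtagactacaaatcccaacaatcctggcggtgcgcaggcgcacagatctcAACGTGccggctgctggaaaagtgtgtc
Cry1, chr10:85185055-85185154, minus strand: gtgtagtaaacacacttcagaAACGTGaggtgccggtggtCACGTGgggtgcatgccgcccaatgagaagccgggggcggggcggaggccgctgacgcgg
Bhlhe41, chr6:145865556-145865585, minus strand: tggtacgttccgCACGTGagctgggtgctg
Arntl, chr7:113207530-113207558, plus strand: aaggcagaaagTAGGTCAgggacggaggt

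For Rora the 250 bases before the start are shown because DNMT1 acts on CpG sites, and capitals mark the 26 CpG sites among them. With the 50 bases that follow, the window of Rora held 28 CpG sites, and 85.8% of all windows held fewer. Per3 (41), Cry1 (38) and Bhlhe41 (32) held more than Rora. Nr1d2 had 20, Dbp 18 and Nr1d1 9, the windows of Arntl 21 and 22 and those of Per1 16 and 21, against a median of 7 over all windows. Methylation itself was not measured in these libraries.
Rora, chr9:68653536-68653785, plus strand: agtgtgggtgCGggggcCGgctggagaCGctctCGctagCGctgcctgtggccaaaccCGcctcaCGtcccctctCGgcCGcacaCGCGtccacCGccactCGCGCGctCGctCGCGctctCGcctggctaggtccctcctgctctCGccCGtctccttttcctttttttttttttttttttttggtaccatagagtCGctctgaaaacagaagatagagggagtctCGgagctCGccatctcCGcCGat

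The libraries held between 22296046 (OB) and 27367792 (control) counts. Levels are given as counts and as CPM, in which the counts of each library were put on a common size by trimmed mean of M-values (TMM). Where 4 values are listed for a gene, their order is control, siDNMT1, OB, siDNMT1_OB. All 10 members passed the level filter (a mean of at least 1 CPM), as did 13233 of the 54532 genes. Intervals are exact (Clopper-Pearson) 95% intervals and cover counting error only. Dnmt1, the target of the siRNA, had 265, 132, 85.4 and 93.1 CPM, so the last library goes against its label and each direction drawn from it is subject to this. Of 8 MSC markers 7 passed the filter and Nt5e (8 to 50 counts) did not. They were not level across the libraries: Pdgfra had 128, 141, 705 and 413 CPM, Thy1 24.9, 21.1, 39.8 and 49.4, and Ly6a 145, 70.7, 134 and 93.2, while the other 4 stayed within a 2-fold change in each comparison. The part of these shifts in the clock values was not tested. Of 7 osteoblast markers 3 passed, Runx2 (72.7 to 96.0 CPM), Col1a1 (9106 to 10970) and Spp1 (548, 206, 187 and 271). The other 4, Alpl, Bglap, Sp7 and Ibsp, had at most 17 counts in any library, also after induction. Of 7 markers of other cells, the macrophage marker Cd68 passed the filter (47 to 62 counts), Pecam1, Krt8, Ptprc and Cdh5 had at most 8 counts, and Epcam and Sox10 had 0 counts in each library. The floor used for a count of 0 was 3 counts, or 0.133 CPM in the shallowest library.

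The receptors of the second loop were measured first. Rora (ENSMUSG00000032238, chr9:68653786-69388246 on mm10, plus strand) had 5.20 CPM (95% interval 4.38 to 6.13), 8.47 (7.38 to 9.68), 12.6 (11.1 to 14.1) and 11.5 (10.2 to 12.8), from 141 to 307 counts. The control library was the lowest, siDNMT1 lay between it and the induced libraries, and the intervals of OB and siDNMT1_OB overlapped. Its level was 2.39-fold higher after induction with control siRNA (log2 fold change 1.26, 95% interval 0.98 to 1.57) and 1.35-fold higher with DNMT1 siRNA (0.43, 0.18 to 0.70).

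Nr1d1 (ENSMUSG00000020889, chr11:98767932-98775333, minus strand) had 650, 478, 210 and 180 counts, or 24.0, 18.7, 9.29 and 6.73 CPM. Nr1d2 (ENSMUSG00000021775, chr14:18204054-18239127, minus strand) had 2082, 1850, 541 and 446 counts, or 76.8, 72.2, 23.9 and 16.7 CPM. For both REV-ERB genes the uninduced libraries lay above the induced ones with no overlap of intervals, the reverse of Rora. Nr1d1 was 2.57-fold lower after induction with control siRNA (log2 fold change −1.36, −1.60 to −1.14) and 2.75-fold lower with DNMT1 siRNA (−1.46, −1.73 to −1.22). Nr1d2 was 3.20-fold (−1.68, −1.82 to −1.54) and 4.32-fold lower (−2.11, −2.27 to −1.97). With DNMT1 siRNA only 0.166% of all tested genes had a lower value than Nr1d2. The exons of Nr1d1 share 263 bases (8.55%) with those of Thra on the opposite strand. The library kit does not mark strand, so reads of these bases cannot be told apart, and Thra itself had 2072, 2944, 4220 and 5258 counts.

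The Period genes did not move as 1 group. Per1 (ENSMUSG00000020893, chr11:69095217-69109960, plus strand) had 33.1 CPM (31.0 to 35.3) and 30.8 (28.7 to 33.1) in the uninduced libraries and 161 (156 to 166) and 152 (147 to 157) in the induced ones. Per2 (ENSMUSG00000055866, chr1:91415982-91459324, minus strand) had 465, 521, 1146 and 1241 counts, or 17.1, 20.3, 50.7 and 46.4 CPM. Both induced libraries lay above both uninduced ones for these 2 repressors of CLOCK and BMAL1. Per1 was 4.85-fold higher after induction with control siRNA (log2 fold change 2.28, 2.17 to 2.39) and 4.92-fold higher with DNMT1 siRNA (2.30, 2.19 to 2.41). Per2 was 2.95-fold (1.56, 1.41 to 1.72) and 2.28-fold higher (1.19, 1.04 to 1.34).

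Per3 (ENSMUSG00000028957, chr4:151003652-151044665, minus strand), which is less needed for the rhythm than its paralogs, went the other way. It had 1165, 964, 754 and 611 counts, or 43.0, 37.6, 33.3 and 22.8 CPM, and the library labelled siDNMT1_OB was the lowest. Its log2 fold change on induction was −0.36 (−0.50 to −0.23) with control siRNA and −0.72 (−0.87 to −0.57) with DNMT1 siRNA, short of the 2-fold threshold in both. Dbp (ENSMUSG00000059824, chr7:45705088-45710203, plus strand), the D-box activator, had 340, 236, 179 and 171 counts, or 12.5, 9.21, 7.92 and 6.39 CPM. Its induction values were −0.66 (−0.93 to −0.40) and −0.52 (−0.82 to −0.24). Its exons share 539 bases (18%) with Sphk2 on the opposite strand, which had 511 to 612 counts.

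The remaining members are the activator Arntl and the repressors Cry1 and Bhlhe41. Arntl (ENSMUSG00000055116, chr7:113207465-113314126, plus strand) had 582, 747, 411 and 728 counts, or 21.5, 29.2, 18.2 and 27.2 CPM. Here both libraries with DNMT1 siRNA lay above both with control siRNA, and the induction values were small, at −0.24 (−0.43 to −0.05) and −0.10 (−0.25 to 0.05). Cry1 (ENSMUSG00000020038, chr10:85131700-85185064, minus strand), a partner of the PER proteins, had 433, 440, 402 and 742 counts, or 16.0, 17.2, 17.8 and 27.7 CPM. Bhlhe41 (ENSMUSG00000030256, chr6:145858243-145865558, minus strand), which binds E-boxes and represses them, had 187, 209, 185 and 329 counts, or 6.89, 8.16, 8.18 and 12.3 CPM. For both genes the library labelled siDNMT1_OB stood above the other 3, whose intervals overlapped. With control siRNA the induction values of Cry1 and Bhlhe41 were 0.15 (−0.04 to 0.35) and 0.24 (−0.05 to 0.55), intervals that include 0. With DNMT1 siRNA they were 0.69 (0.52 to 0.86) and 0.59 (0.34 to 0.85). A predicted gene on the opposite strand, Gm43909, covers 19% of the Bhlhe41 exons and had 2 to 17 counts.

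**Figure D1:**
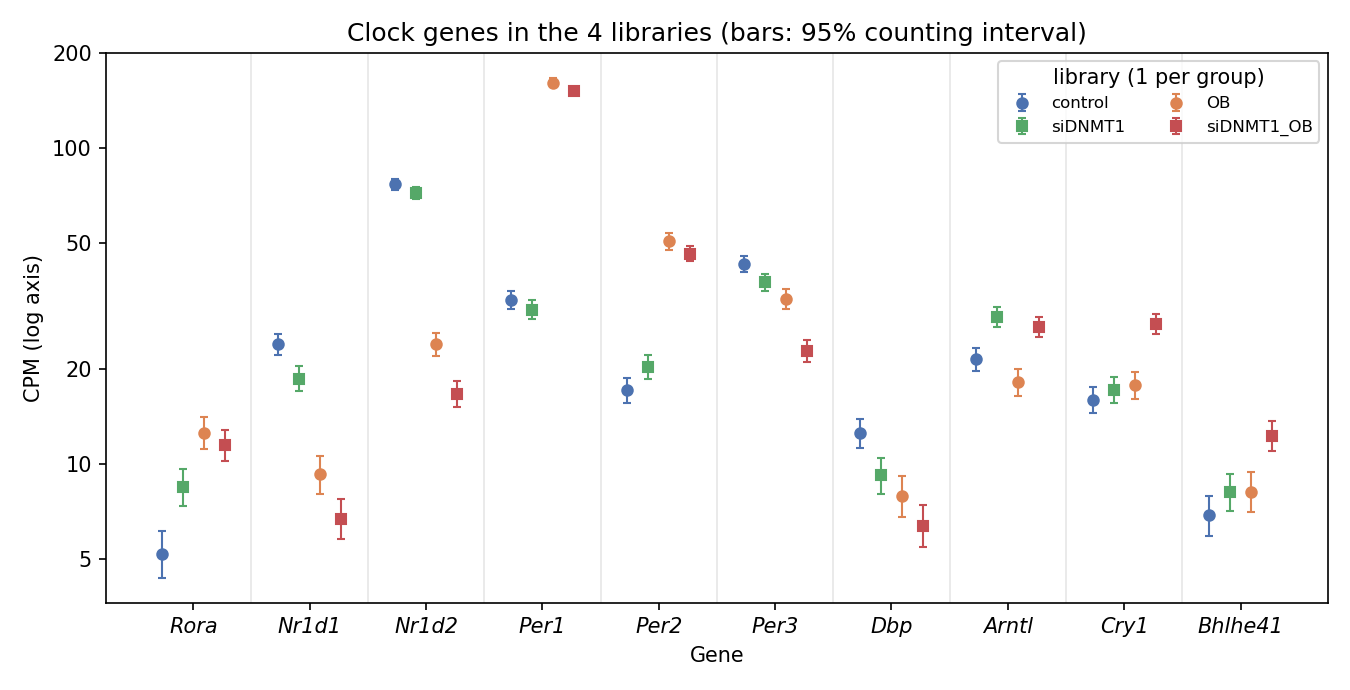
Level of the 10 clock genes in CPM on a log axis, 1 point per library (control, siDNMT1, OB and siDNMT1_OB) with its exact 95% counting interval. Per1 and Per2 are highest in the induced libraries (161 and 152 CPM for Per1) and Nr1d1 and Nr1d2 lowest there (23.9 and 16.7 CPM for Nr1d2).

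Because the genes differ in length, levels were compared between members only per kilobase of exon. Nr1d2 was the highest member in control at 14.2 CPM per kilobase, followed by Nr1d1 at 7.79 and Per1 at 5.88. Cry1, Per3 and Dbp came next, and neighbours among them had overlapping intervals (4.78, 4.47 and 4.19), as had Per2 and Arntl (2.93 and 2.85). Bhlhe41 (1.03) and Rora (0.398) were the lowest. In OB, Per1 was the highest at 28.6 CPM per kilobase and Per2 second at 8.65, while Nr1d2 had 4.42 and Nr1d1 3.02. Rora was the lowest member per kilobase in each of the 4 libraries, at 0.648 in siDNMT1, 0.961 in OB and 0.878 in siDNMT1_OB. In OB its interval overlapped that of Bhlhe41 (1.22). The second place in siDNMT1_OB was shared within counting error by Cry1 (8.30) and Per2 (7.92).

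**Figure D2:**
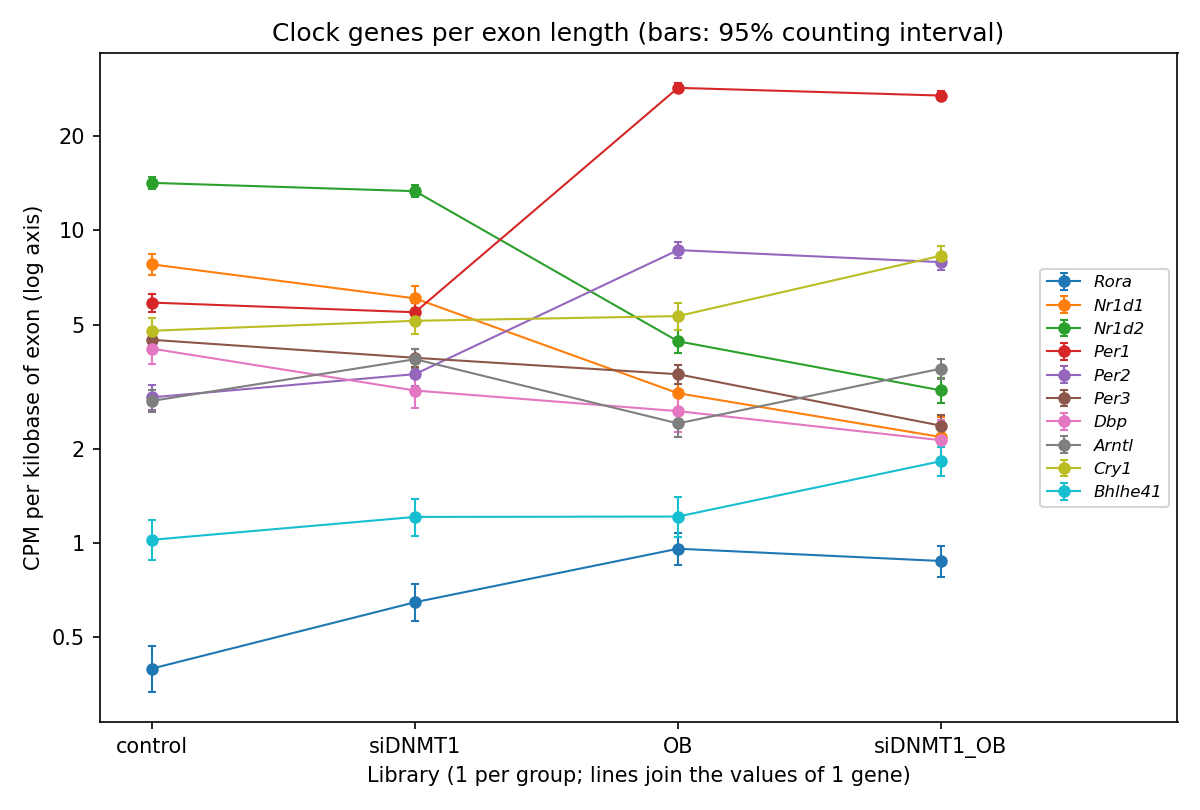
Level of each clock gene per kilobase of exon (CPM per kilobase, log axis) in the 4 libraries, with exact 95% counting intervals and lines joining the values of 1 gene. Nr1d2 leads in control (14.2) and Per1 in OB (28.6), and Rora is lowest in each library.

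To describe the clock genes after early OB induction, each induced library was set against the uninduced library of the same siRNA. With control siRNA, 3 members were at least 2-fold higher (Rora, Per1 and Per2), against 10.6% of all tested genes, and 2 at least 2-fold lower (Nr1d1 and Nr1d2), against 7.1%. With DNMT1 siRNA, 2 were higher (Per1 and Per2), against 6.83% of all tested genes, and 2 lower (Nr1d1 and Nr1d2), against 2.71%. The members were chosen with earlier results of these data known, so these shares describe the list and do not test it. The counting interval excluded 0 for 8 of 10 members with control siRNA and for 9 with DNMT1 siRNA, and for 74.4% and 66.3% of all tested genes. The median log2 fold change of the members was −0.04 and 0.17, beside 0.01 and 0.00 for all tested genes, with 5 members positive and 5 negative in each. All 10 members had the same sign in both comparisons, which share no library, as had 79.6% of all tested genes.

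An additive edgeR fit of siRNA and induction over the 4 libraries gave the one test across genes that the design allows. It has 1 residual degree of freedom, which mixes spread between dishes with any difference between the induction values of the siRNA groups. In its induction term 4 of the 10 members passed the 2-fold threshold at an adjusted p under 0.05 by edgeR's quasi-likelihood test with Benjamini-Hochberg adjustment, against 11.3% of all tested genes. These were Per1 (log2 fold change 2.29, adjusted p = 0.00203), Nr1d2 (−1.90, adjusted p = 0.006), Per2 (1.38, adjusted p = 0.0103) and Nr1d1 (−1.42, adjusted p = 0.0103). Per1 ranked 30th by p among the 13233 genes of the edgeR fit. Rora had 0.85 with an adjusted p of 0.0717, Per3 −0.54 with 0.0602 and Dbp −0.60 with 0.0724, so none of these passed. Arntl (−0.17), Cry1 (0.43) and Bhlhe41 (0.42) had edgeR adjusted p-values of 0.43, 0.163 and 0.176. DESeq2 also called 4 members in this term, against 10.5% of all tested genes. Because the members were chosen with earlier results known, the shares called by edgeR and DESeq2 do not test the list either.

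**Figure D3:**
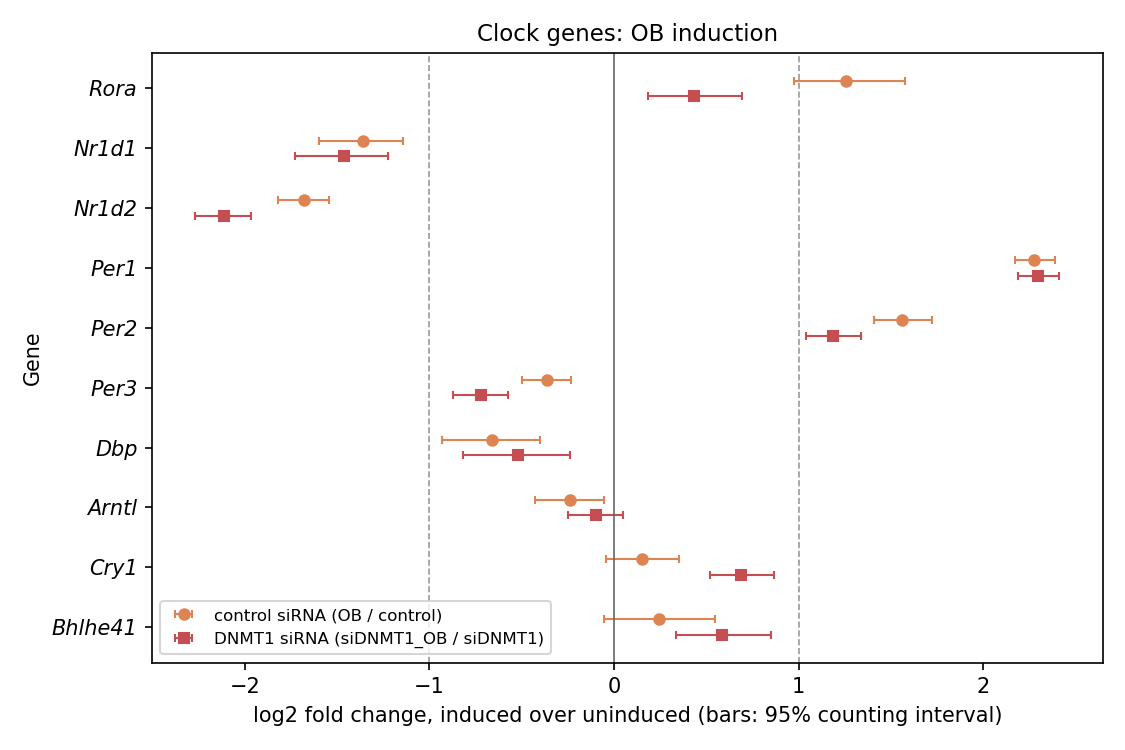
Log2 fold change of each clock gene on OB induction, with control siRNA (circles, OB over control) and with DNMT1 siRNA (squares, siDNMT1_OB over siDNMT1), with exact 95% counting intervals and dashed lines at a 2-fold change. Per1 is furthest right (2.28 and 2.30) and Nr1d2 furthest left (−1.68 and −2.11).

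Genes of other responses moved with the same induction, and their part in the clock values was not tested. By the 2-fold threshold 10.6% of all tested genes were higher and 7.1% lower with control siRNA. With DNMT1 siRNA these shares were 6.83% and 2.71%. Of 10 glucocorticoid-responsive genes, 7 were at least 2-fold higher with control siRNA and 8 with DNMT1 siRNA, with medians of 1.96 and 2.08 on the log2 scale. Tsc22d3, a target of the glucocorticoid receptor, had 27.4, 29.0, 441 and 450 CPM, and Fkbp5 45.5, 44.1, 372 and 294. Per1 is itself known as a gene that glucocorticoids induce. The receptor gene Nr3c1 had 111, 109, 84.8 and 89.3 CPM. Of 10 proliferation genes, 9 were at least 2-fold lower with control siRNA and 5 with DNMT1 siRNA (medians −2.22 and −0.94). Of 8 immediate early genes, which serum induces within minutes, 5 were at least 2-fold lower and 1 higher with control siRNA, and 3 lower and 0 higher with DNMT1 siRNA. In bulk RNA, fewer cells that express a gene and less RNA per cell cannot be told apart.

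The other genes of the clock were taken from a list of 27, of which 22 passed the level filter. On induction with control siRNA 2 of these 22 were at least 2-fold higher (Usp2 and Nampt) and 1 lower (Timeless), beside 10.6% and 7.1% of all tested genes. With DNMT1 siRNA 1 was higher (Usp2) and 1 lower (Timeless), beside 6.83% and 2.71%. Shares of this size do not set the list apart from the background. Their medians were 0.06 and −0.02. Usp2, an output gene that encodes a deubiquitinase, had 65, 89, 211 and 266 counts, with log2 fold changes of 1.93 (1.55 to 2.39) and 1.50 (1.17 to 1.88). Nampt, the rate-limiting enzyme of the NAD salvage pathway, had 1.02 (0.93 to 1.11) and 0.70 (0.61 to 0.79). Timeless, which in mammals also works at the replication fork, had 1829, 1297, 321 and 581 counts and values of −2.24 (−2.42 to −2.08) and −1.22 (−1.37 to −1.08), in the direction of the proliferation genes.

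Direct partners and paralogs of the members were read from the same comparisons. Clock, the partner of BMAL1, had 99.7, 85.5, 105 and 104 CPM, and its induction values were 0.08 and 0.29. Cry2 had 0.34 and 0.33. Ciart, a repressor of CLOCK and BMAL1, had 112, 111, 47 and 58 counts and −0.96 and −0.97, just short of the threshold. Tef, a paralog of Dbp, had 0.44 and 0.00, and Nfil3, which opposes DBP at D-boxes, 0.72 and 0.27. Bhlhe40, the paralog of Bhlhe41, had −0.57 with control siRNA and 0.26 with DNMT1 siRNA. Npas2, Rorb, Hlf and Fbxl21 had at most 30 counts in any library and were below the filter. Rorb, a paralog of Rora, had 22, 7, 7 and 6 counts. Npas2 had 13 counts in siDNMT1 and 30 in siDNMT1_OB (log2 fold change 1.03, 0.16 to 2.21), and Rorb was lower than in control by 1.34 in siDNMT1 and by 1.20 in OB on the log2 scale, all from few counts. Hlf had 4, 1, 0 and 1 counts.

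**Figure D4:**
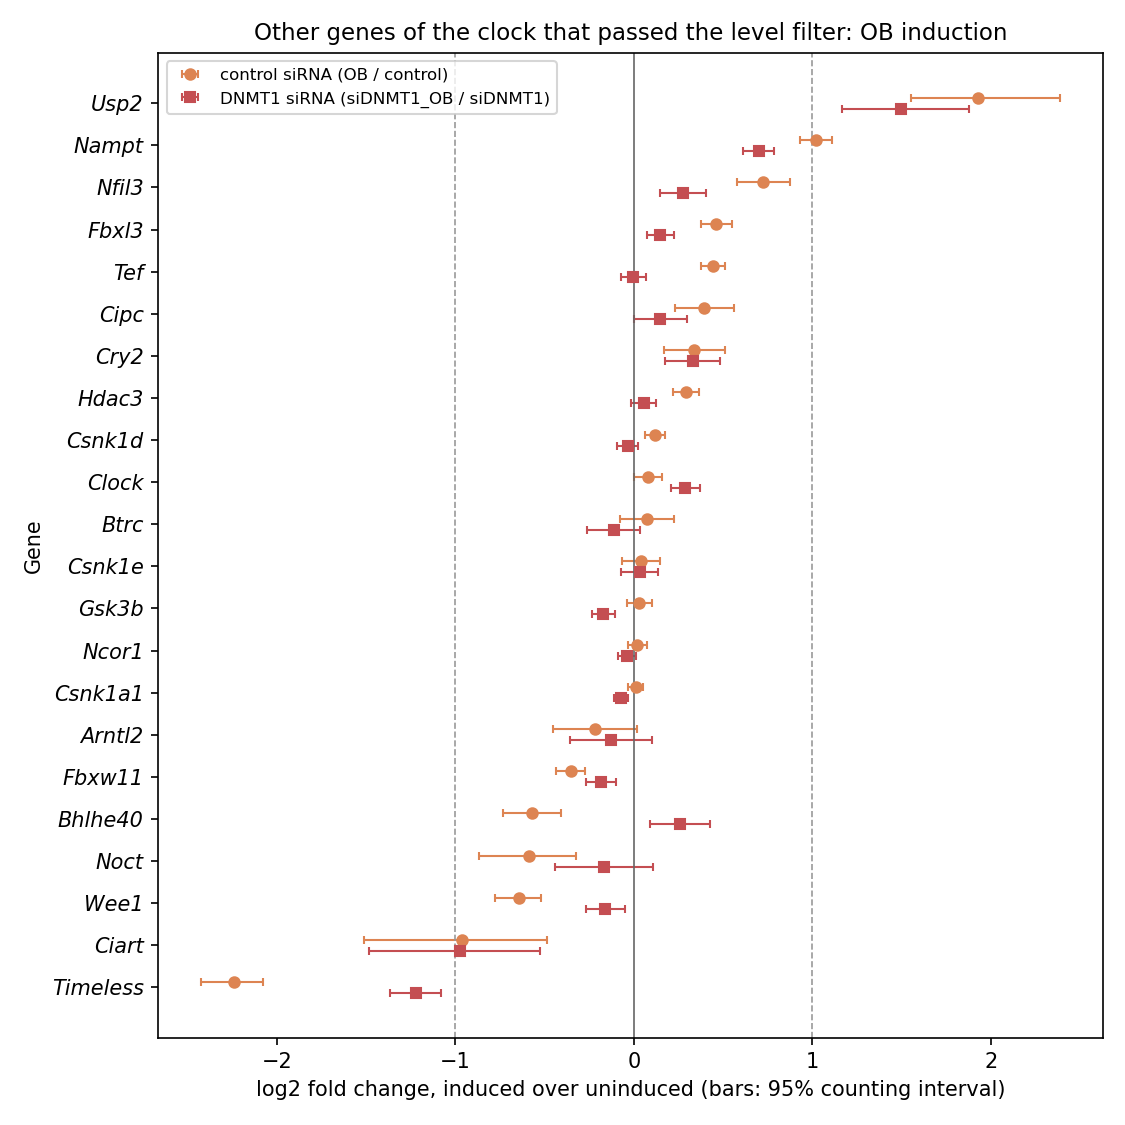
Log2 fold change on OB induction of the 22 other clock genes above the level filter, with control siRNA (circles) and DNMT1 siRNA (squares), exact 95% counting intervals and dashed lines at a 2-fold change. Usp2 (1.93 and 1.50) and Timeless (−2.24 and −1.22) lie outside the lines in both comparisons, and most of the others lie near 0.

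Libraries with DNMT1 siRNA were set against those with control siRNA in uninduced cells (siDNMT1 against control) and after induction (siDNMT1_OB against OB), 2 comparisons that share no library with each other. Dnmt1 itself was lower in siDNMT1 than in control but not in siDNMT1_OB than in OB (132 against 265 and 93.1 against 85.4 CPM), so the second is a comparison of labelled libraries. In each of them 0 of the 10 members were 2-fold higher or lower. Of all tested genes, 1.97% were higher and 1.37% lower in uninduced cells, and 2.36% higher and 1.37% lower after induction. The counting interval excluded 0 for 6 members and 8 members respectively, as it did for 52.8% and 51.2% of all tested genes. These counts moved with the scaling, to 6 or 7 members in uninduced cells and to between 6 and 9 after induction. Of the 22 other clock genes, 0 passed the 2-fold threshold in either comparison. The siDNMT1 term of the additive edgeR fit called 0 members, and 0% of all tested genes, at an adjusted p under 0.05. At an unadjusted p under 0.05 it held 1148 genes, or 8.68%, with 2 members among them, Arntl (edgeR adjusted p = 0.391) and Nr1d1 (edgeR adjusted p = 0.571). Dnmt1 was not among the genes called (log2 fold change −0.45, edgeR adjusted p = 0.776). DESeq2 called 91 genes in that term, or 0.701% of those with an adjusted p, and 0 members.

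The members with the same siDNMT1 direction in both states were 8 of 10, and 53.3% of all tested genes had the same sign. Arntl was 1.36-fold higher in siDNMT1 than in control (log2 fold change 0.44, 0.28 to 0.60) and 1.49-fold higher in siDNMT1_OB than in OB (0.58, 0.41 to 0.76). Its counterpart Nr1d1, a repressor of Arntl, was lower by 0.36 (−0.53 to −0.19) and by 0.46 (−0.76 to −0.17) on the same scale. Nr1d2 had −0.09 (−0.18 to 0.00) in uninduced cells and −0.52 (−0.71 to −0.34) after induction. Per3 had −0.19 (−0.32 to −0.07) and −0.54 (−0.70 to −0.39), and Dbp −0.44 (−0.69 to −0.20) and −0.31 (−0.62 to 0.00). Cry1 had 0.10 (−0.09 to 0.30) and 0.64 (0.46 to 0.82), Bhlhe41 0.24 (−0.05 to 0.54) and 0.58 (0.32 to 0.86), and Per1 −0.10 (−0.24 to 0.04) and −0.08 (−0.15 to −0.02). Rora and Per2 were the 2 members whose sign differed. Rora had 0.70 (0.39 to 1.02) in uninduced cells, where it lay above 95.4% of all tested genes, and −0.13 (−0.37 to 0.11) after induction. Per2 had 0.25 (0.06 to 0.43) and −0.13 (−0.24 to −0.01), and with DESeq2 size factors the second interval included 0 (−0.23 to 0.01). Other lists differed in these comparisons as well, and their part in the clock values was not tested. The background shares past the 2-fold threshold were 1.97% higher and 1.37% lower in uninduced cells, and 2.36% and 1.37% after induction. Of the 10 proliferation genes, 0 passed the 2-fold threshold in uninduced cells (median −0.29) and 4 were higher in siDNMT1_OB than in OB (median 0.99). Of the 8 immediate early genes, 0 passed it in uninduced cells (median 0.10). In siDNMT1_OB against OB all 8 had positive values (median 0.40), and 2 passed it, Atf3 (1.58, from 18 and 68 counts) and Fos (1.34, from 18 and 57 counts). Of the 10 glucocorticoid-responsive genes, 0 passed it in either comparison (medians −0.15 and −0.13).

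**Figure D5:**
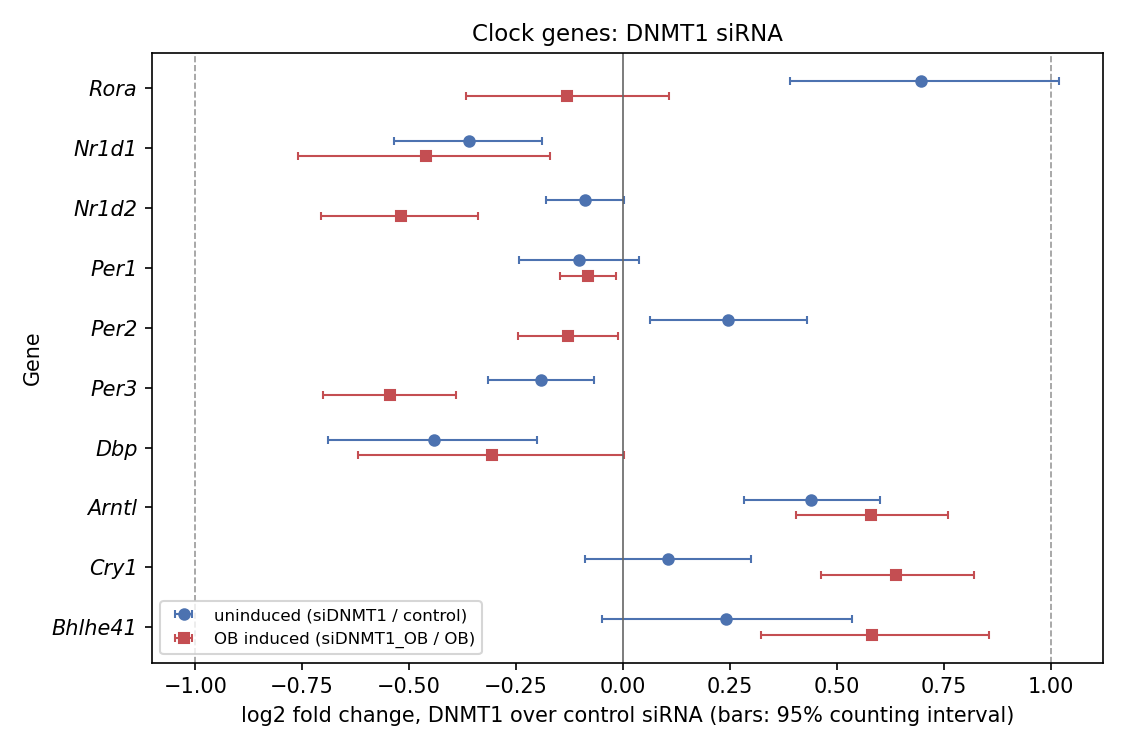
Log2 fold change of each clock gene between DNMT1 and control siRNA in uninduced cells (circles, siDNMT1 over control) and after OB induction (squares, siDNMT1_OB over OB), with exact 95% counting intervals and dashed lines at a 2-fold change. No point passes the lines, Arntl is positive in both (0.44 and 0.58), and Rora is positive in uninduced cells (0.70) and near 0 after induction (−0.13).

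The induction values with DNMT1 siRNA were then set against those with control siRNA, which gives the same number as the difference of the siDNMT1 values. The difference was −0.83 on the log2 scale for Rora (95% counting interval by the delta method −1.22 to −0.45), and 95.6% of all tested genes had a higher one. It was −0.43 (−0.64 to −0.23) for Nr1d2, −0.37 (−0.59 to −0.16) for Per2 and −0.35 (−0.55 to −0.16) for Per3. For Cry1 it was 0.53 (0.28 to 0.80), with a higher value in 10.3% of all tested genes. These 5 were the members whose counting interval excluded 0, as it did for 50.8% of all tested genes. For Per1 the difference was 0.02 (−0.13 to 0.17) and for Nr1d1 −0.10 (−0.44 to 0.23). No member reached a difference of 1, which 3.27% of all tested genes passed upward and 2.95% downward. The 4 libraries leave no spread with which to test such a difference.

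Across the 4 libraries the members fell into profiles that were described by the distance between log2 CPM values centred on each gene's mean. Cry1 and Bhlhe41 were closest, at 0.10, followed by Per3 and Dbp at 0.25 and by Nr1d1 and Nr1d2 at 0.52. The member closest to Rora was Per2 at 0.61, and that closest to Per1 was also Per2, at 0.95. Per1 had the widest range, 2.38 on the log2 scale, then Nr1d2 with 2.20, whereas Arntl had the narrowest with 0.68. Among all tested genes the 5 profiles nearest to Rora were those of Kazald1 (0.08), Slc2a13 (0.08), Cnnm2 (0.09), Tcea2 (0.09) and Nynrin (0.09). Kazald1 had 87, 133, 165 and 181 counts, and Nynrin 585, 819, 1129 and 1206. Those nearest to Per1 were Srpx2 (0.14), Bdh2 (0.14), 2610316D01Rik (0.20), 8030451A03Rik (0.23) and Mt2 (0.24), the last also one of the 10 glucocorticoid-responsive genes, with 58, 43, 221 and 286 counts. Each of these likenesses rests on 4 values.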

How the data were processed

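The authors deposited a table of raw, whole-number counts for each gene, from TruSeq poly(A) libraries read from both ends. Per the study's methods and the submitters' processing notes, reads were trimmed with Trimmomatic, aligned with HISAT2 (mm10) and counted with featureCounts. Tool versions, strand use and the handling of ambiguous reads were not given in the sources used here. From the deposited counts, CPM were computed in edgeR 4.0.16 (R 4.3.3) with TMM factors of 0.991 to 1.01. The level filter kept genes that averaged 1 CPM or more. Log2 fold changes used a prior count of 2, a change of at least 1 in size was the call, and intervals are exact 95% counting intervals, the difference of 2 fold changes by the delta method. The additive model was fitted with edgeR's quasi-likelihood test, with DESeq2 1.42.0 as the alternative. The steps were tested on simulated data. The members, the gene lists and the rule for named genes (all members, listed clock genes past the fold or paired with a member, and the 5 genes most like Rora and Per1) were chosen with earlier results of these data known. One listed gene is not reported here. Alternatives covered scaling, filter, prior count and threshold. Reads carry no molecular identifiers.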

Additional observations from a re-analysis of the deposited data

Results flagged for a closer look

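Among the members, Rora and Per2 had differences between DNMT1 and control siRNA of opposite sign in uninduced and in OB induced cells. For Rora the value was 0.70 in uninduced cells and −0.13 after induction, a difference of −0.83 on the log2 scale, and the second interval (−0.37 to 0.11) included 0. For Per2 the values were 0.25 and −0.13, a difference of −0.37, and the second interval (−0.24 to −0.01) included 0 with DESeq2 size factors (−0.23 to 0.01). With 1 library a group these differences were not tested across conditions, and the induced comparison rests on the library labelled siDNMT1_OB, whose Dnmt1 level goes against its label. Groups of 1 library could not be searched for outlying samples.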

How the results depend on the processing

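The log2 fold changes of the 10 members kept their direction and their side of the 2-fold threshold under each alternative scaling and prior count. These were total count, upper quartile and DESeq2 scaling and prior counts of 0.5 and 5. The differences of the induction values stayed short of 1 in size. For Per1 the difference was near 0 (0.02, −0.13 to 0.17), and its sign depended on the scaling. The additive fit called 4 members for induction and 0 for siDNMT1 under each alternative. The counts of members past the fold changed only with a 1.5-fold threshold: it gave 1 member higher in siDNMT1 than in control (Rora), 1 higher in siDNMT1_OB than in OB (Cry1) and 4 higher and 3 lower (Per3 added) in siDNMT1_OB than in siDNMT1, against 0, 0, 2 and 2, and 3 lower in OB than in control (Dbp added), against 2. The count of members whose counting interval excludes 0 stayed at 8 and 9 for induction under each scaling. For siDNMT1 against control it was 6, and 7 with DESeq2 size factors (Nr1d2 added). For siDNMT1_OB against OB it was 8, with 9 under total count and upper quartile scaling (Dbp added) and 6 with DESeq2 size factors (Per1 and Per2 no longer counted). The counts of all genes depended on filter and threshold. In siDNMT1 against control, 261 higher and 181 lower became 1379 and 1219 with no filter, 110 and 91 with a filter at 5 CPM, and 843 and 593 with the 1.5-fold threshold. In siDNMT1_OB against OB, 312 and 181 became 1381 and 1892, 185 and 72, and 891 and 635. In OB against control, 1404 and 940 became 4080 and 2062 with no filter and 2532 and 2018 at 1.5-fold, and the higher genes 825 with the filter at 5 CPM. In siDNMT1_OB against siDNMT1, 904 and 358 became 2550 and 1316, 509 and 229, and 1860 and 1178. With fewer or more low genes kept, the number of genes tested also changed, from 13233 to 27380 or 10827. No paired analysis was possible because each group holds 1 library, so there are no replicate numbers to pair by. The additive fit, which compares induction within each siRNA, is the only blocked one. Leaving out a library would remove its group and the 1 residual degree of freedom of that fit. Depth limits the members near 200 counts most, and dish to dish spread was not measured.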
